A study of Mus musculus with 18 samples.

Results

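The 9 genes described here mark macrophages of the brain's borders and monocytes that enter from the blood, and were followed in 18 bulk RNA-seq libraries of mouse brain tissue resected around metastases. The 9 genes were taken by symbol as a given list (Mrc1, Lyve1, Cd163, F13a1, Pf4, Ccr2, Ly6c2, Plac8 and Arg1). All 9 were found among 55416 gene rows of the count table and all 9 passed the filter on low counts with 17174 genes. Melanoma brains had received B16-F10-BrM4 cells, breast cancer brains EO771-BrM3 cells and lung cancer brains 482N1 cells, each a single cell line. In all 3 models the genotype label was WT, 40000 cells were injected and the tissue was taken at day 10. Each model had 6 brains, numbered 1 to 6 for melanoma, 14 to 19 for breast and 7 to 11 and 13 for lung. The labels give no strain, sex, age or route of injection. No brain without a tumour was analysed, so that every difference is one between models.

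Macrophages live at the borders of the brain, in the meninges, around vessels and in the choroid plexus, apart from the microglia inside the tissue. Mrc1, Lyve1, Cd163, F13a1 and Pf4 are known in mice as markers of such border macrophages. Classical monocytes enter inflamed or tumour-bearing brain from the blood. They carry Ccr2, the receptor for the chemokine Ccl2, and Ly6c2, and they express Plac8. Arg1 encodes arginase 1, which splits arginine into ornithine and urea and is used as a marker of alternatively activated and tumour-associated macrophages. In bulk tissue, fewer cells of a type and less RNA per cell cannot be told apart.

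The libraries held 7366250 to 14533877 counts. A count of 3, taken as the floor of detection, was worth 0.203 to 0.419 CPM (counts scaled to a common library size). The 3 libraries melanoma 3, breast 18 and breast 19 were poor in long transcripts, with slopes of log2 CPM on transcript length of -0.276, -0.291 and -0.231, against -0.130 to 0.202 in the others. Melanoma 1 stood above the other melanoma libraries in macrophage genes, and lung 8 and lung 10 below the other lung libraries. The summed CPM of a list of 11 general macrophage genes was 254.6 in melanoma 1 and 112.9 to 137.0 in the other melanoma libraries. It was 443 in lung 8 and 417 in lung 10, and 650.5 to 1004 in the other lung libraries. Each count of called genes below was also made without these libraries. Tumour RNA was present, with summed melanocyte genes at 3446 to 21949 CPM in melanoma libraries and summed epithelial genes at 66.2 to 167 CPM in breast and 309 to 1316 CPM in lung libraries. Its part in the results was not tested. Itgam, a further macrophage gene, had no read in any of the 18 libraries and adds nothing to the list sums.

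Ly6c2 needs care as a marker, since it has a near-identical neighbour, Ly6c1, which endothelial cells express. Parts of both coding sequences, read from GENCODE transcripts on GRCm38 and counted from the start codon, are shown because they hold all differing bases. A read from a shared stretch alone has the same sequence in both genes, and how such reads were counted is not given. Capitals mark the bases that differ.
Ly6c2, bases 1 to 100: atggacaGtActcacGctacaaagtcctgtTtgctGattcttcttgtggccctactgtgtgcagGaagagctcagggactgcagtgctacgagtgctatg
Ly6c1, bases 1 to 100: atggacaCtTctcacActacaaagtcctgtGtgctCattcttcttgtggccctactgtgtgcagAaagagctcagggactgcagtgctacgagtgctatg
Ly6c2, bases 251 to 396: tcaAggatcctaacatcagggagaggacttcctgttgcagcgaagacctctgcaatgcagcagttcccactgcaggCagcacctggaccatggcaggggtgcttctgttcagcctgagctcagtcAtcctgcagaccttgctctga
Ly6c1, bases 251 to 396: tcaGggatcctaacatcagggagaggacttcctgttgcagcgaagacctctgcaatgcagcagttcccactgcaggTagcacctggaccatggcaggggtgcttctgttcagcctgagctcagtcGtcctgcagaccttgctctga
Both reading frames had 396 bases, with 9 differences, all within these parts (97.7% identity), and an identical stretch of 188 bases. Of all stretches of 50 bases in the Ly6c2 transcript, 33.0% also occurred in another gene and 32.6% in Ly6c1. For Ccr2 the share was 2.27%, and for the other 7 genes it was under 0.1%. F13a1 overlaps the antisense gene Gm30489 on chromosome 13, and the sources used here do not give the strand setting of the counting. Gm30489 itself had 2 reads in all melanoma libraries together, 4 in breast and 2 in lung.

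The promoters of 3 border and 3 monocyte genes are shown, as 4 of them hold a core that the myeloid factor PU.1 can bind and 2 do not. They are RefSeq sequences on GRCm38.p6, from 250 bases before to 50 after a listed start of the gene. Capitals mark that core, GAGGAA, searched on both strands. For F13a1, Ly6c2 and Plac8 2 promoters were listed, and only the most upstream was searched and shown. The shares over all promoters given below count every listed promoter.
Mrc1 (chr2:14229164-14229463, plus strand): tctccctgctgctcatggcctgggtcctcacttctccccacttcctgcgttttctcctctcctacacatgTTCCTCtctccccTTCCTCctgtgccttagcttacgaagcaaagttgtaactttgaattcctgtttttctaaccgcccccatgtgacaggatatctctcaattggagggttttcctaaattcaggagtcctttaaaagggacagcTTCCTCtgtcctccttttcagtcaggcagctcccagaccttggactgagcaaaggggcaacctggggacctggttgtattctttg
F13a1 (chr13:37050195-37050494, minus strand): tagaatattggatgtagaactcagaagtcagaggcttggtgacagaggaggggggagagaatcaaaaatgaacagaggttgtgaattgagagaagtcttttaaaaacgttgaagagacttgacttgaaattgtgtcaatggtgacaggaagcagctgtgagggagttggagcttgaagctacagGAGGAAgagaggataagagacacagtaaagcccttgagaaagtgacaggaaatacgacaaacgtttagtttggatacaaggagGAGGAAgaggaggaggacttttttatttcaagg
Cd163 (chr6:124304401-124304700, plus strand): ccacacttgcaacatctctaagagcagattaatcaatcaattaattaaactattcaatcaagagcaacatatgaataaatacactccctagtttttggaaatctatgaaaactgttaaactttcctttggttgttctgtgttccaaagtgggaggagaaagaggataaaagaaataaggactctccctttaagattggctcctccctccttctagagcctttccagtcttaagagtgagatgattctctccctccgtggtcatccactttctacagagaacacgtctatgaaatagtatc
Ccr2 (chr9:124101933-124102232, plus strand): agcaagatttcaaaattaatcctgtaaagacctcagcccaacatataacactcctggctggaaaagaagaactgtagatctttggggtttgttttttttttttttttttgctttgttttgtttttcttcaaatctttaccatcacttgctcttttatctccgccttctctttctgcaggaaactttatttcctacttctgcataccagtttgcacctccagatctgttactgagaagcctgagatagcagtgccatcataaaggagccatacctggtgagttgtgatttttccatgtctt
Ly6c2 (chr15:75111922-75112221, minus strand): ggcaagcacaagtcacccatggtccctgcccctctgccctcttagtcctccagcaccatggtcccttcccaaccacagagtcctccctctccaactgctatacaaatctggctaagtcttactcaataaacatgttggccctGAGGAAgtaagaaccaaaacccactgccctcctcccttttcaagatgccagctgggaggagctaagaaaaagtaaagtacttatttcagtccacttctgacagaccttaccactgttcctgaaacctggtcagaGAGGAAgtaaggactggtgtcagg
Plac8 (chr5:100572156-100572455, minus strand): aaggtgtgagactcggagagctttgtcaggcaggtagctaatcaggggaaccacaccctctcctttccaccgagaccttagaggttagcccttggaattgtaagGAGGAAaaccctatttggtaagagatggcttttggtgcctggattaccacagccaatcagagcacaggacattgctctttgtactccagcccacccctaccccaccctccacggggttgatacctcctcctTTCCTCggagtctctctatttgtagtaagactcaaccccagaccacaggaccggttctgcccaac
The remaining genes lie on chromosomes 7 (Lyve1), 5 (Pf4) and 10 (Arg1). RefSeq promoters were at hand for 7 of the 9 genes, not for Lyve1 and Arg1. The core occurred in 5 of these 7 (Mrc1, F13a1, Pf4, Ly6c2 and Plac8), not in Cd163 or Ccr2, and in 28.3% of all 32851 promoters of the same length. The C/EBP core TTGCNNAA, searched on both strands, occurred in 1 of the 7, Pf4, and in 10.8% of all promoters. A match is a string of letters and not a measured site.

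Among border macrophage genes, Mrc1 and the pair of F13a1 and Pf4 ordered the 3 models differently. Mrc1, the mannose receptor, had its highest level in lung libraries, whereas F13a1 and Pf4 had theirs in breast libraries. Mrc1 measured 4.94, 7.26 and 11.6 CPM (lowest, median and highest) in melanoma, 8.74, 12.8 and 16.9 CPM in breast and 20.9, 37.7 and 47.8 CPM in lung libraries. Each lung library lay above each of the other 12, whereas melanoma and breast libraries overlapped. The means were 7.50 ± 2.38 CPM in melanoma, 12.8 ± 2.67 CPM in breast and 36.8 ± 9.72 CPM in lung (SD, n = 6 each). Mrc1 was lower in melanoma than in lung by a log2 fold change of -2.29 ± 0.22 (SE, edgeR adjusted p = 2.22e-07). It was lower in breast than in lung (-1.52 ± 0.22, edgeR adjusted p = 3.89e-05) and lower in melanoma than in breast (-0.78 ± 0.22, edgeR adjusted p = 0.0112).

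F13a1, the A subunit of coagulation factor XIII, measured 2.59, 3.48 and 6.12 CPM in melanoma, 13.6, 18.3 and 32.4 CPM in breast and 7.28, 11.7 and 16.6 CPM in lung libraries. Melanoma libraries lay below all others, and breast and lung libraries overlapped, with breast 14 the highest of the 18. Its log2 fold change was -1.53 ± 0.25 in melanoma over lung (edgeR adjusted p = 9.80e-05) and -2.33 ± 0.25 in melanoma over breast (edgeR adjusted p = 6.44e-07). Breast over lung gave 0.80 ± 0.23 (edgeR adjusted p = 0.0215). That call was lost without lung 11 (0.65, edgeR adjusted p = 0.0661) or without breast 14 (0.61, edgeR adjusted p = 0.0632).

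Pf4, the chemokine CXCL4 of platelets and border macrophages, measured 1.09, 1.36 and 1.72 CPM in melanoma, 6.81, 11.98 and 19.3 CPM in breast and 2.98, 6.57 and 10.7 CPM in lung libraries. Melanoma libraries again lay below all others, and breast and lung overlapped. The log2 fold changes were -2.22 ± 0.31 in melanoma over lung (edgeR adjusted p = 1.50e-05) and 1.00 ± 0.27 in breast over lung (edgeR adjusted p = 0.0135). In melanoma over breast Pf4 differed by -3.21 ± 0.31 (edgeR adjusted p = 1.51e-07). The call in breast over lung was lost without breast 18 (0.82, edgeR adjusted p = 0.0516). The summed CPM of 9 other platelet genes was 2.59 to 5.48 in melanoma, 4.42 to 8.46 in breast and 4.73 to 7.93 in lung libraries, with Gp1ba and Gp6 at 0 to 3 reads in each model. The part of platelets in the Pf4 level was not tested.

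Lyve1 and Cd163 were read at low levels and separated the models little. Lyve1, a hyaluronan receptor of border macrophages and lymphatic vessels, measured 0.624, 1.22 and 1.67 CPM in melanoma, 0.524, 0.784 and 1.18 CPM in breast and 0.232, 0.645 and 1.06 CPM in lung libraries. The 3 groups overlapped, and the reads numbered 87 in melanoma, 53 in breast and 49 in lung libraries. Lyve1 was higher in melanoma than in lung (log2 fold change 0.93 ± 0.31, edgeR adjusted p = 0.0354), a call that was lost when any of 7 single libraries was left out (melanoma 4, 5 or 6, lung 7, 8, 10 or 11, edgeR adjusted p up to 0.0808). It did not pass in breast over lung (0.34 ± 0.33, edgeR adjusted p = 0.545) or in melanoma over breast (0.59 ± 0.31, edgeR adjusted p = 0.169). Lymphatic endothelial genes summed to 36.3 to 59.0 CPM in melanoma, 77.2 to 102 CPM in breast and 54.1 to 63.9 CPM in lung libraries, and Mmrn1 had no read in any library.

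Cd163, the scavenger receptor for haptoglobin and haemoglobin, measured 0.780, 1.46 and 2.41 CPM in melanoma, 1.23, 2.28 and 3.23 CPM in breast and 0.814, 1.17 and 1.96 CPM in lung libraries. All 3 groups overlapped. No comparison passed, with log2 fold changes of 0.26 ± 0.29 in melanoma over lung (edgeR adjusted p = 0.613), 0.83 ± 0.29 in breast over lung (edgeR adjusted p = 0.0522) and -0.57 ± 0.28 in melanoma over breast (edgeR adjusted p = 0.150). The value in breast over lung lay beside the threshold, and it passed when any of 5 single libraries was left out (melanoma 2 or 4, lung 10 or 13, breast 19, edgeR adjusted p down to 0.0314).

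The monocyte genes Ccr2, Ly6c2 and Plac8 had their highest means in breast and their lowest in melanoma libraries. Ccr2 measured 0.929, 1.07 and 15.2 CPM in melanoma, 19.8, 29.7 and 37.6 CPM in breast and 6.92, 13.8 and 25.5 CPM in lung libraries. Melanoma 1 alone, at 15.2 CPM, reached into the lung range, while the other 5 melanoma libraries lay between 0.929 and 1.17 CPM. The log2 fold change was -2.04 ± 0.61 in melanoma over lung (edgeR adjusted p = 0.0200) and -3.06 ± 0.63 in melanoma over breast (edgeR adjusted p = 8.50e-04). Without melanoma 1 these became -3.76 and -4.78. The call in melanoma over lung was lost without melanoma 4 (edgeR adjusted p = 0.0560) or without lung 7 (edgeR adjusted p = 0.0535). Between breast and lung Ccr2 differed by 1.02 ± 0.57 and did not pass (edgeR adjusted p = 0.252). Without melanoma 1, which enters this comparison only through the shared estimate of the spread, the same difference passed (edgeR adjusted p = 0.0104).

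Ly6c2 measured 0.0826, 0.303 and 4.93 CPM in melanoma, 28.7, 51.4 and 63.9 CPM in breast and 0.856, 12.6 and 29.6 CPM in lung libraries. In the melanoma libraries 3, 4 and 6 this was 3 reads or fewer, at the floor. Lung 8 and lung 10, at 0.856 and 1.41 CPM, lay within the melanoma range, and the breast and lung ranges met at 28.7 and 29.6 CPM. The log2 fold change was -3.21 ± 0.81 in melanoma over lung (edgeR adjusted p = 0.00564) and -5.17 ± 0.84 in melanoma over breast (edgeR adjusted p = 8.33e-05). Without melanoma 1 these were -4.38 and -6.33. For breast over lung it was 1.96 ± 0.70 and did not pass (edgeR adjusted p = 0.0583), but passed without melanoma 1 (edgeR adjusted p = 0.0320), melanoma 3 (edgeR adjusted p = 0.0405) or lung 7 (edgeR adjusted p = 0.0305).

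The neighbour Ly6c1 was far more even, with 20.1 ± 2.32 CPM in melanoma, 44.2 ± 15.2 CPM in breast and 34.2 ± 11.9 CPM in lung (SD, n = 6 each). Its log2 fold changes were -0.76 in melanoma over lung (edgeR adjusted p = 0.0236), 0.37 in breast over lung (edgeR adjusted p = 0.329) and -1.13 in melanoma over breast (edgeR adjusted p = 0.00109). How many reads of the pair were exchanged in counting was not tested.

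Plac8, a cysteine-rich protein of monocytes and other leukocytes, measured 0.0826, 0.671 and 9.26 CPM in melanoma, 37.8, 61.1 and 132 CPM in breast and 4.15, 32.6 and 90.5 CPM in lung libraries. In the melanoma libraries 5 and 6 this was 1 read each, under the floor. Melanoma 1 overlapped with lung 10, and breast and lung libraries overlapped widely. Its log2 fold change was -4.00 ± 0.82 in melanoma over lung (edgeR adjusted p = 9.92e-04) and -4.96 ± 0.84 in melanoma over breast (edgeR adjusted p = 1.31e-04), and without melanoma 1 these were -5.47 and -6.43. It did not pass in breast over lung (0.97 ± 0.69, edgeR adjusted p = 0.393).

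Arg1 had the largest fold change of the 9 genes between melanoma and lung. It measured 0.165, 0.295 and 1.54 CPM in melanoma, 9.43, 11.8 and 70.6 CPM in breast and 7.88, 36.5 and 110 CPM in lung libraries. The 6 melanoma libraries held 38 Arg1 reads in all, below every other library, against 1518 in breast and 4141 in lung libraries. Melanoma 3, 5 and 6 had 3 reads or fewer, at the floor. The log2 fold change was -6.62 ± 0.85 in melanoma over lung (edgeR adjusted p = 6.39e-06) and -5.35 ± 0.83 in melanoma over breast (edgeR adjusted p = 4.69e-05). Without melanoma 1 these became -7.43 and -6.17. For breast over lung it was -1.26 ± 0.61 and did not pass (edgeR adjusted p = 0.177). Breast 14, at 70.6 CPM, stood apart from the other breast libraries at 9.43 to 14.7 CPM, and without it the difference was -2.17 (edgeR adjusted p = 0.00876) and that in melanoma over breast -4.45. Hepatocytes also express Arg1, and in lung libraries a hepatocyte list summed to 67.5 to 134 CPM, against 0.927 to 1.97 CPM in the other models. That sum came from Apob (5577 reads) and Hnf4a (1747 reads), while Alb had 5 reads and Fgb none in the 6 lung libraries.

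**Figure D1:**
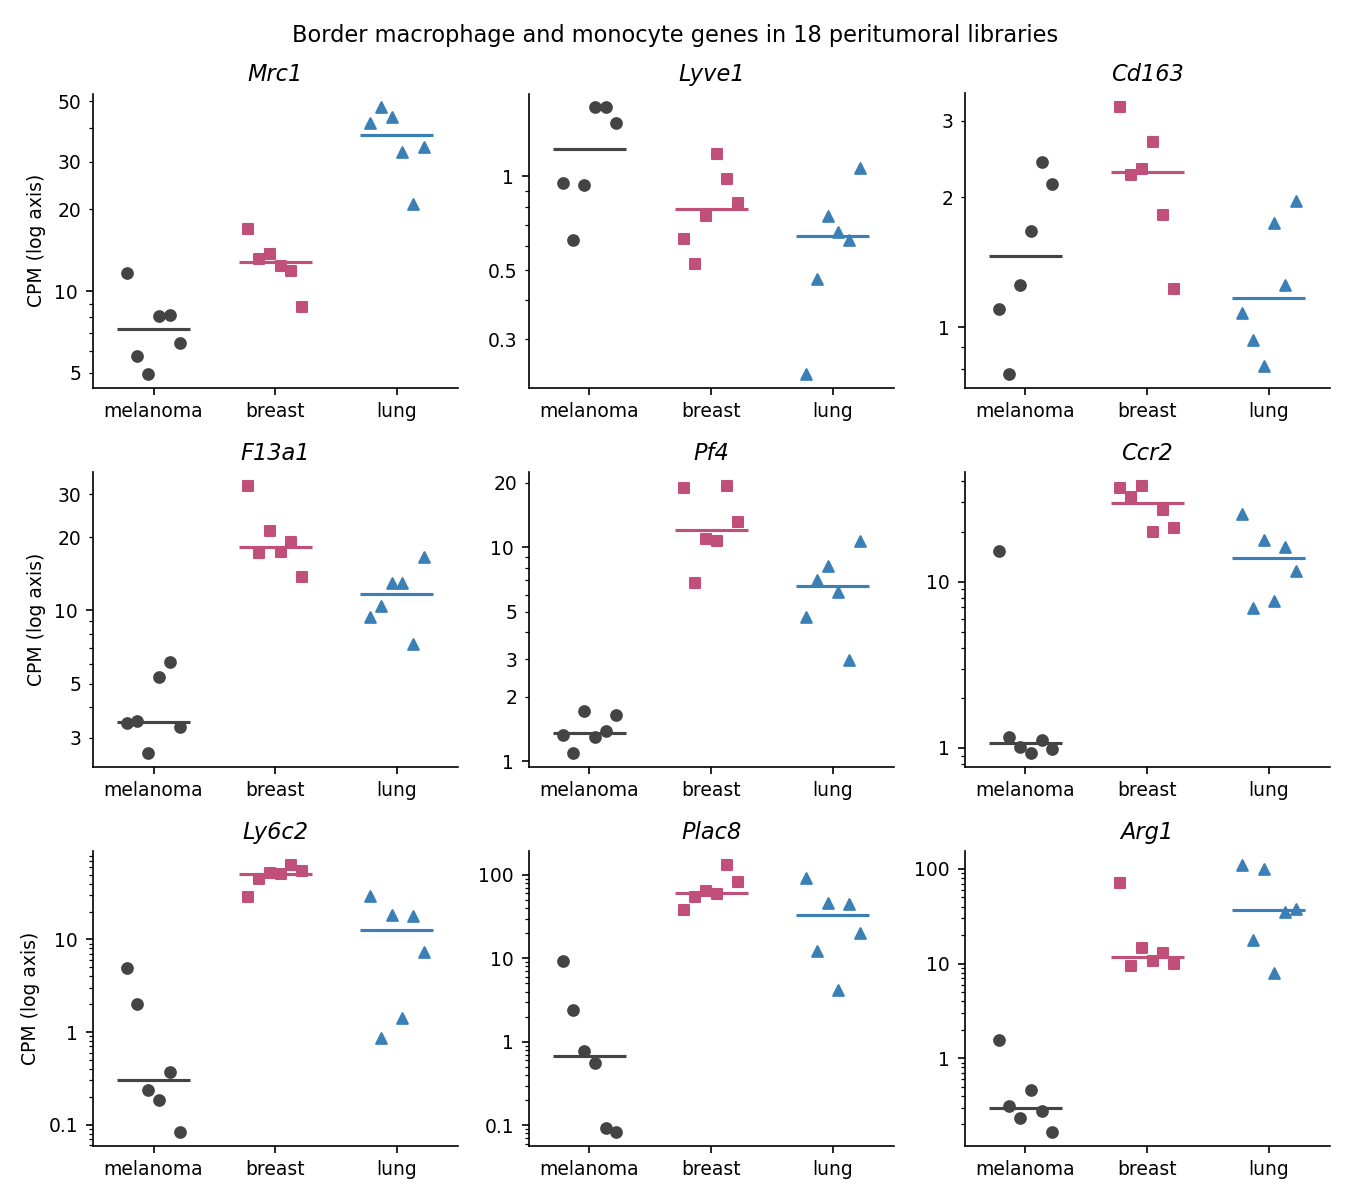
Level of each of the 9 genes (CPM, log axis) in the 18 libraries, with melanoma, breast and lung models from left to right, points in order of library number and a bar at each model's median. Mrc1 peaks in lung libraries (median 37.7 CPM), F13a1, Pf4, Ccr2, Ly6c2 and Plac8 in breast libraries, and melanoma 1 stands above the other melanoma libraries in Ccr2.

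In melanoma over lung 8 of the 9 genes were called (adjusted p under 0.05), 7 lower and 1 higher, where 23.2% of all genes tested were called, 14.7% lower and 8.51% higher. In 4 of the 9, Mrc1, F13a1, Pf4 and Arg1, all melanoma libraries lay below all lung libraries, as they did for 9.63% of all genes. In breast over lung 3 of the 9 were called, F13a1 and Pf4 higher and Mrc1 lower, where 18.3% of genes were called, 11.2% higher and 7.16% lower. Mrc1 alone showed no overlap there, with breast below lung, as did 5.91% of all genes. In melanoma over breast 7 were called, all lower, where 28.9% of genes were called and 19.2% lower. In 6 of the 9, all but Mrc1, Lyve1 and Cd163, melanoma lay wholly below breast, against 12.1% of all genes. The median log2 fold change of the 9 genes was -2.22 in melanoma over lung, 0.83 in breast over lung and -3.06 in melanoma over breast, and that of all tested genes 0.02, -0.02 and 0.04. In the test of any difference among the models 7 of the 9 passed, where 35.8% of genes did. Lyve1 (edgeR adjusted p = 0.0593) and Cd163 (edgeR adjusted p = 0.0674) did not.

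Without the 3 libraries poor in long transcripts the counts of members called were equal in each comparison and direction, though not the genes. In breast over lung Pf4 was lost (0.77, edgeR adjusted p = 0.0671) and Cd163 gained (0.96, edgeR adjusted p = 0.0278). Of all genes 33.6% were then called in melanoma over lung, 25.0% in breast over lung and 34.2% in melanoma over breast. Without melanoma 1, lung 8 and lung 10 they were 7 lower and 0 higher in melanoma over lung, 2 higher and 2 lower in breast over lung, and 7 lower in melanoma over breast. The genes called in breast over lung then were Ccr2 (log2 fold change 0.71, edgeR adjusted p = 0.0430) and Ly6c2 (1.42, edgeR adjusted p = 0.0419) as higher and Mrc1 and Arg1 (-1.72, edgeR adjusted p = 0.0391) as lower, and neither F13a1 nor Pf4 passed. Of all genes 21.2%, 13.8% and 27.8% were called in these fits, in the same order of comparisons. Melanoma 1, lung 8 and lung 10 were left out for their levels of immune genes, close to the values tested. Lung 8 and lung 10 held the lowest lung values of Ccr2 (6.92 and 7.63 CPM), Ly6c2 (0.856 and 1.41 CPM) and Arg1 (17.9 and 7.88 CPM). The calls gained without these libraries are therefore a description and no separate support.

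**Figure D2:**
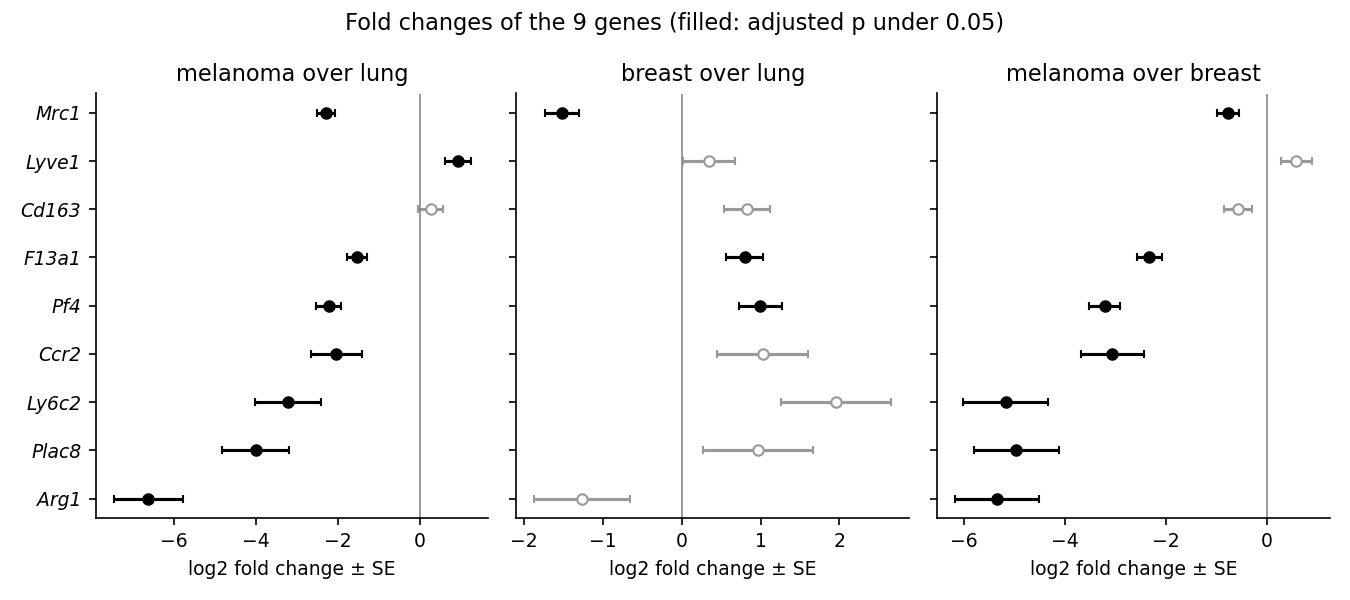
Log2 fold change with its standard error for the 9 genes in the 3 comparisons, positive values being higher in the model named first, filled where the edgeR adjusted p is under 0.05. Most genes lie left of 0 in both comparisons of melanoma, down to -6.62 for Arg1, while breast over lung holds only F13a1, Pf4 and Mrc1 as filled points.

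Per kilobase of transcript, which allows levels of different genes to be roughly compared, the order of the genes changed between the models. The length was that of each gene's longest protein-coding GENCODE transcript, whichever form was present. The sequence that Ly6c2 shares with Ly6c1 and the libraries poor in long transcripts were not allowed for. In melanoma libraries Pf4 led with 2.40 mean CPM per kilobase, followed by Plac8 (1.80), Ly6c2 (1.59) and Mrc1 (1.40), with Arg1 last (0.338). This order rests on melanoma 1, without which Pf4 (2.43) was followed by Mrc1 (1.24), F13a1 (1.05), Ly6c2 (0.706) and Plac8 (0.643), with Ccr2 last (0.182). In breast libraries Ly6c2 (60.0) and Plac8 (58.3) led, followed by Pf4 (22.6) and Arg1 (14.5). In lung libraries Arg1 (34.9) and Plac8 (29.8) led, followed by Ly6c2 (15.3), Pf4 (11.2) and Mrc1 (6.84). Lyve1 and Cd163 were the lowest pair in breast (0.281 and 0.507) and in lung (0.219 and 0.292). Neighbours such as Ly6c2 and Plac8 in breast differed by less than their spread, with SDs of 24.0% and 46.1% of the mean.

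The balance of monocyte to border macrophage genes differed between libraries of the same model. The summed CPM of Ccr2, Ly6c2 and Plac8 divided by that of the 5 border genes was 0.0769 to 0.477 in melanoma 2 to 6 and 1.59 in melanoma 1. In breast it was 1.42 in breast 14 and 2.91 to 4.23 in the other 5 libraries. In lung it was 0.303 in lung 8 and 0.244 in lung 10, and 0.605 to 2.55 in the other 4. Border genes summed to 54.1 CPM in lung 10 and 66.6 CPM in lung 8, inside the range of 33.0 to 66.5 CPM of the other lung libraries or just above it, so that these libraries were low in monocyte genes and not in border genes. Breast 14 had both the highest border sum of the 18 libraries (72.1 CPM) and the lowest monocyte sum of the breast libraries (103 CPM). The border sum was led by different genes in the models. Mrc1 gave 47.8 CPM of it in lung 8 and 32.6 CPM in lung 10. In breast libraries F13a1 had the highest mean of the 5 border genes (20.2 CPM), above Pf4 (13.3 CPM) and Mrc1 (12.8 CPM).

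**Figure D3:**
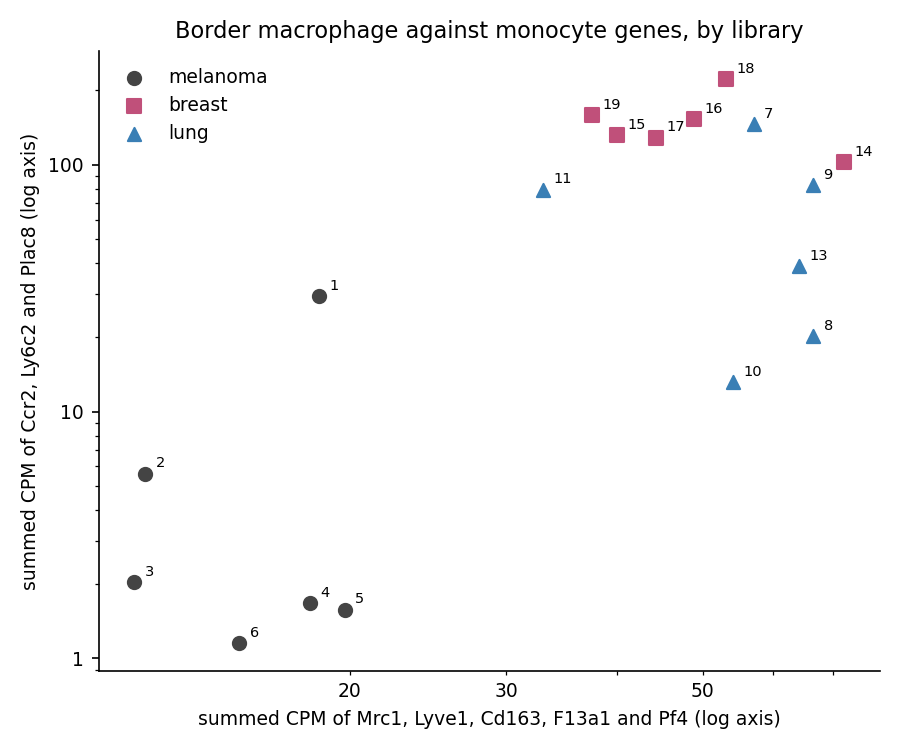
Summed CPM of the 5 border macrophage genes (horizontal, log axis) against that of the 3 monocyte genes (vertical, log axis), 1 point per library with its number. Breast libraries form a group high in monocyte genes (103 to 223 CPM), lung libraries spread vertically from 13.2 to 146 CPM, and melanoma 1 (29.4 CPM) lies above the other melanoma libraries.

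Ratios of reads within a library do not depend on how libraries are scaled. All 36 pairs of the 9 genes were compared between the models by exact two-sided permutation tests over the 924 splits of 6 against 6, 108 tests in all, where the smallest p possible is 0.00216. That p was reached by 12 pairs in melanoma over lung, 8 in breast over lung and 19 in melanoma over breast, and p-values are given without adjustment. The pairs share genes and are not independent results. In breast over lung all of them but Ly6c2 to Plac8 contained Mrc1. The share of pairs of all genes that reach this p was not computed. The pairs named here were chosen after their values were seen.

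Mrc1 and F13a1, both counted here among the border macrophage genes, parted most clearly in breast libraries. Like Ccr2, Ly6c2 and Plac8, F13a1 and Pf4 had their highest means in breast and their lowest in melanoma libraries. The part of monocytes in the F13a1 and Pf4 levels was not tested. The ratio of Mrc1 to F13a1 reads had a median of 1.78 in melanoma (1.33 to 3.36), 0.642 in breast (0.522 to 0.765) and 3.13 in lung libraries (2.04 to 4.58). Breast lay wholly below lung (log2 difference -2.29, exact permutation p = 0.00216), and melanoma wholly above breast (1.52, exact permutation p = 0.00216). Melanoma and lung overlapped (-0.77, exact permutation p = 0.0195). The ratio of Mrc1 to Pf4 had medians of 5.58 in melanoma, 1.03 in breast and 6.11 in lung libraries. Breast and lung differed by -2.52 (exact permutation p = 0.00216), while melanoma and lung differed by -0.20 and overlapped (exact permutation p = 0.530). F13a1 to Pf4 had medians of 2.91 in melanoma, 1.67 in breast and 1.80 in lung, and breast over lung (-0.23) gave an exact permutation p of 0.372.

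Among monocyte genes, Ly6c2 to Plac8 was 0.790 in breast (median, 0.485 to 0.863) and 0.352 in lung libraries (0.0692 to 0.402), without overlap (log2 difference 1.38, exact permutation p = 0.00216). In melanoma the ratio ran from 0.300 to 4.0, with few reads of either gene. Mrc1 to Ccr2 had medians of 5.72 in melanoma, 0.429 in breast and 2.69 in lung libraries, and breast lay wholly below lung (-2.62, exact permutation p = 0.00216). The ratio of Lyve1 to Cd163 was 0.775 in melanoma (0.692 to 1.00) and 0.382 in breast libraries (0.195 to 0.667), without overlap (1.08, exact permutation p = 0.00216). Without the libraries poor in long transcripts, or without the 3 apart in immune genes, the breast over lung differences of Mrc1 to F13a1 (-2.27 and -2.24), Mrc1 to Pf4 (-2.19 and -2.49), Mrc1 to Ccr2 (-2.60 and -2.14) and Ly6c2 to Plac8 (1.55 and 0.97) each had an exact permutation p of 0.00476, the smallest those splits allow.

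**Figure D4:**
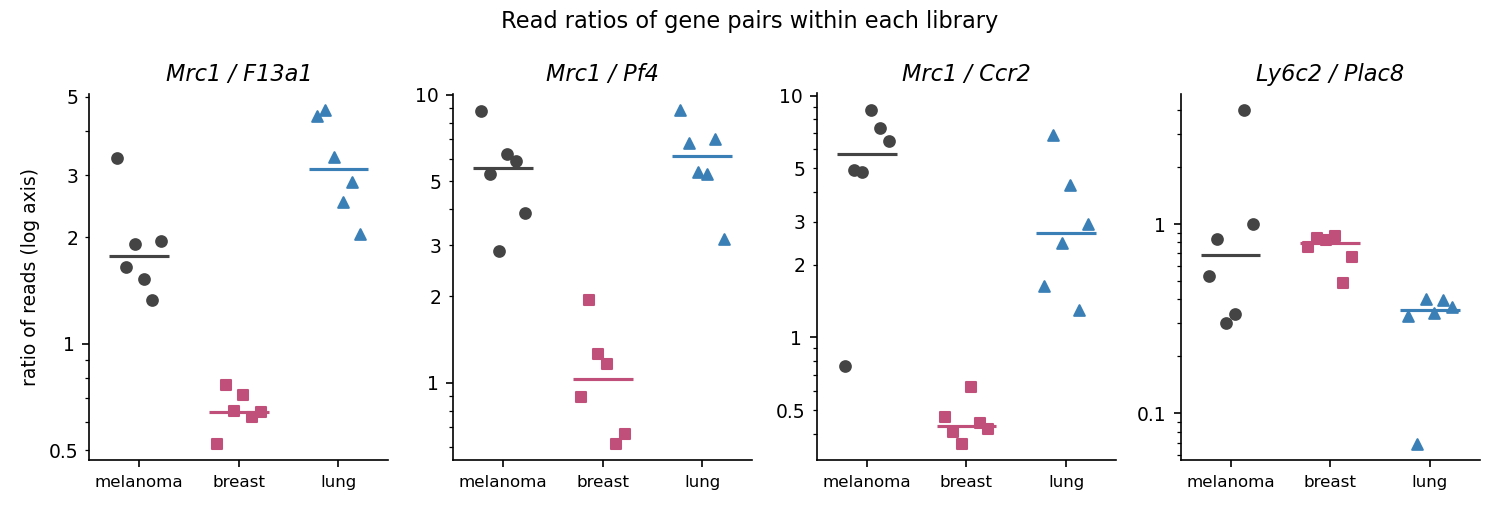
Ratio of the reads of 2 genes within each library (log axis), with melanoma, breast and lung models from left to right and a bar at each median. Breast libraries lie below all lung libraries for Mrc1 over F13a1 (medians 0.642 and 3.13), Mrc1 over Pf4 and Mrc1 over Ccr2, and above them for Ly6c2 over Plac8 (0.790 and 0.352).

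Set against the general macrophage list (Aif1, Cd68, Adgre1, Fcer1g, Tyrobp and others), the genes separated in a way that CPM did not show. This denominator was chosen after seeing the data. Per 1000 reads of that list, Mrc1 had a median of 46.5 reads in melanoma, 15.2 in breast and 44.9 in lung libraries. In melanoma over lung the log2 difference of Mrc1 to the list was -0.08 (exact permutation p = 0.788), against -1.79 in breast over lung (exact permutation p = 0.00216) and 1.71 in melanoma over breast (exact permutation p = 0.00216). F13a1 had 25.1 reads in melanoma, 23.1 in breast and 17.3 in lung libraries, and its differences gave exact permutation p-values of 0.104 in melanoma over lung, 0.115 in breast over lung and 0.537 in melanoma over breast. Lyve1 stood at 9.64 reads in melanoma, 0.995 in breast and 1.01 in lung libraries. Cd163 stood at 12.3 in melanoma, 2.59 in breast and 2.02 in lung libraries.

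Both were thus higher per macrophage read in melanoma than in lung, with log2 differences of 3.16 for Lyve1 and 2.44 for Cd163 (exact permutation p = 0.00216 for each). Of the monocyte genes, Ly6c2 had 2.39 reads per 1000 in melanoma, 62.2 in breast and 14.6 in lung libraries, and Plac8 had 5.72, 73.7 and 39.2 in the same order. Ccr2 had 8.36, 35.0 and 18.9, and Pf4, of the border genes, 10.3, 16.9 and 11.1. In melanoma over lung the ranges of these 4 genes overlapped, with log2 differences of -1.36 for Ly6c2, -2.77 for Plac8, -0.72 for Ccr2 and 0.11 for Pf4 (exact permutation p = 0.184, 0.0195, 0.175 and 0.794). The overlap of Ccr2 rests on melanoma 1, which at 59.8 reads lay above the lung range of 14.3 to 25.4. The other melanoma libraries lay below that range. In breast over lung the log2 differences were 0.83 for Ccr2 and 2.53 for Ly6c2 (exact permutation p = 0.00216 for each). For Plac8 it was 1.16 and for Pf4 0.73 (exact permutation p = 0.0628 and 0.108). In melanoma over breast Ly6c2 differed by -3.89 and Plac8 by -3.93 (exact permutation p = 0.00216 for each). There Ccr2 differed by -1.56 and Pf4 by -0.61 (exact permutation p = 0.0152 and 0.0887). Arg1 had 2.19 reads in melanoma, 15.3 in breast and 50.4 in lung libraries. Its difference was -4.21 in melanoma over lung (exact permutation p = 0.00216) and -1.51 in breast over lung (exact permutation p = 0.0390). Each of the 10 list genes tested was lower in melanoma than in lung and than in breast. The list is shared with microglia, of whose own genes 7 of 9 were lower in melanoma than in lung and 6 of 9 lower than in breast.

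Of the 36 pairs, Ly6c2 and Plac8 were the most alike within models. With each gene's log2 CPM taken as its deviation from the model mean, over 18 libraries that share library preparation and depth effects, Ly6c2 and Plac8 had a Pearson r of 0.88 (Spearman 0.93). Ccr2 had an r of 0.75 with Ly6c2 and 0.75 with Plac8, the second being 0.57 without melanoma 1. These 2 values did not hold in every model: Ccr2 and Ly6c2 had 0.81 in melanoma, -0.49 in breast and 0.97 in lung libraries, and Ccr2 and Plac8 0.79, -0.40 and 0.93 in the same order. Among border genes, Mrc1 and F13a1 had 0.56, F13a1 and Cd163 0.58, Lyve1 and Cd163 0.51, and Mrc1 and Lyve1 -0.09. Single models reached higher values, with 0.94 for Lyve1 and Cd163 in melanoma, 0.93 for Mrc1 and Cd163 and 0.91 for Mrc1 and F13a1 in breast, and 0.94 for F13a1 and Pf4 in lung libraries. Cd163 ran against Plac8 at -0.66.

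Arg1 and Ly6c2 had an r of 0.78 in the 6 melanoma libraries, -0.85 in the 6 breast libraries and 0.88 in the 6 lung libraries. The breast value rests on breast 14, without which it was 0.48 over 5 libraries. Arg1 and F13a1 had 0.93 in breast, 0.82 without breast 14, and -0.13 in lung. These values over 5 or 6 libraries are a description, and those without breast 14, like the levels per kilobase without melanoma 1, were chosen after seeing the data.

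**Figure D5:**
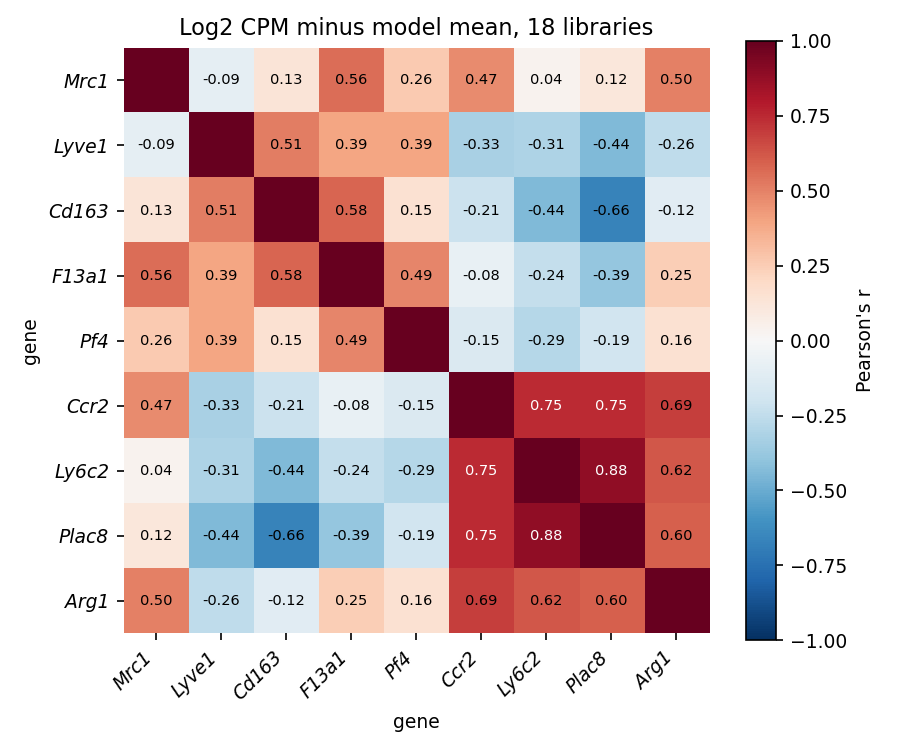
Pearson's r between the 9 genes over 18 libraries, from log2 CPM minus the mean of the model, on a colour scale from -1 (blue) to 1 (red). Ccr2, Ly6c2, Plac8 and Arg1 form a block of positive values (0.60 to 0.88), and Cd163 is negative with Plac8 (-0.66).

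The genes whose deviations were most like those of each member, by Pearson r among tested genes averaging 1 CPM or more, differed by role. For Ccr2 they were Spn (0.98), H2-DMb1 (0.96) and H2-Aa (0.95), of which the last 2 belong to MHC class II. For Ly6c2 they were Ifit3 (0.96), Ifi205 (0.96) and Irf7 (0.95), all interferon-induced genes. For Plac8 they were Ccl2 (0.96), Ifi35 (0.96) and Isg15 (0.95). For Arg1 they included Gpr35 (0.89) and Cfp (0.87), the complement factor properdin. The border genes had lower leading values. Mrc1 was led by Neat1 (0.83), Abcc3 (0.83) and Alpk1 (0.82), F13a1 by Cyp1b1 (0.84), Abcc3 (0.83) and Scn7a (0.80), and Cd163 by BC030499 (0.85), Slc7a11 (0.84) and Sema3d (0.82). Lyve1 was led by Dnmt3l (0.79), Gm13414 (0.74) and Scara3 (0.74), and Pf4 by E130102H24Rik (0.76), Tes3-ps (0.75) and Usp45 (0.74). Leaving out the 2 libraries farthest from the median of Pf4 took its values to 0.549 to 0.607.

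Other genes of the same roles were read from lists. Of 10 tested further border macrophage genes, 8 were lower and 0 higher in melanoma than in lung, 2 were lower and 1 higher in breast than in lung, and 7 were lower in melanoma than in breast. Folr2, the folate receptor beta of resident macrophages, was at 0.593 ± 0.248 CPM in melanoma, 2.61 ± 0.629 CPM in breast and 5.02 ± 1.73 CPM in lung libraries (SD, n = 6 each). It thus had its highest mean in the same model as Mrc1, with log2 fold changes of -3.05 in melanoma over lung (edgeR adjusted p = 1.44e-07) and -0.97 in breast over lung (edgeR adjusted p = 0.00910). Mgl2, a macrophage galactose-type lectin, was also lower in breast than in lung (-2.56, edgeR adjusted p = 8.39e-04). Ms4a7, a gene that marks border and infiltrating macrophages against microglia, was higher in breast than in lung (1.63, edgeR adjusted p = 0.00215) and lower in melanoma than in breast (-4.04, edgeR adjusted p = 2.06e-07). Clec4n, the lectin Dectin-2, and Dab2, an endocytic adaptor, were lower in melanoma than in lung by -5.50 and -1.64 (edgeR adjusted p = 2.11e-07 and 1.02e-06).

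Of 16 further monocyte genes, 14 were lower and 1 higher in melanoma than in lung, 1 was lower and 2 higher in breast than in lung, and 14 were lower and 1 higher in melanoma than in breast. Vcan, the proteoglycan versican, was at 14.2 ± 5.18 CPM in melanoma and 44.3 ± 4.11 CPM in lung libraries (SD, n = 6 each; log2 fold change -1.64, edgeR adjusted p = 6.02e-06). Ccr1, a chemokine receptor, was lower by -4.21 (edgeR adjusted p = 1.00e-05). S100a4, a calcium-binding protein, was lower in breast than in lung (-1.87, edgeR adjusted p = 1.39e-04), while Ifitm6, an interferon-induced membrane protein, was higher (1.82, edgeR adjusted p = 0.00589). Treml4, known from Ly6C-low monocytes, had 1 read in melanoma, 99 in breast and 40 in lung libraries. Haptoglobin, Hp, the ligand taken up by Cd163, had 19 reads in melanoma and 503 in breast libraries (-4.85, edgeR adjusted p = 1.43e-06).

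Of 11 macrophage activation genes, 8 were lower in melanoma than in lung and 9 lower and 1 higher in melanoma than in breast, and in breast over lung 1 was higher and 2 lower. Il4ra, the receptor through which IL-4 and IL-13 induce Arg1, was at 9.84 ± 3.30 CPM in melanoma, 61.0 ± 11.5 CPM in breast and 110 ± 42.5 CPM in lung libraries (SD, n = 6 each). Its log2 fold changes were -3.47 in melanoma over lung (edgeR adjusted p = 7.97e-09) and -0.84 in breast over lung (edgeR adjusted p = 0.0173). Tgfbi, a matrix protein of macrophages, was lower in melanoma than in lung by -3.51 (edgeR adjusted p = 1.71e-06). Trem1, an amplifying receptor of myeloid cells, had 1 read in melanoma, 521 in breast and 439 in lung libraries. Its level was 0.00243 of that in lung (95% interval 6.13e-05 to 0.0136, exact binomial, counting error only). Hmox1, haem oxygenase 1, was higher in breast than in lung (305 ± 83.8 CPM and 65.5 ± 41.0 CPM, log2 fold change 2.22, edgeR adjusted p = 0.00135), and Vegfa lower (-0.66, edgeR adjusted p = 0.00171).

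Of 12 genes that recruit or sustain monocytes and macrophages, 10 were lower in melanoma than in lung and 9 lower in melanoma than in breast, and 3 were higher and 1 lower in breast than in lung. Ccl2, the ligand of Ccr2, was at 3.41 ± 3.46 CPM in melanoma, 150 ± 55.1 CPM in breast and 28.5 ± 22.1 CPM in lung libraries (SD, n = 6 each). Like Ccr2 it had its highest mean in breast, by a log2 fold change of 2.39 over lung (edgeR adjusted p = 0.00743), and it differed by -5.43 in melanoma over breast (edgeR adjusted p = 5.54e-06). Csf1, the macrophage growth factor, was lower in melanoma than in lung (-1.75, edgeR adjusted p = 7.99e-06) and than in breast (-2.40, edgeR adjusted p = 1.71e-07). Csf2rb, the shared chain of the GM-CSF and IL-3 receptors, was lower in melanoma than in lung by -3.54 (edgeR adjusted p = 1.05e-05), and Cx3cr1, the fractalkine receptor, by -1.33 (edgeR adjusted p = 2.41e-05). Il34, a second ligand of the Csf1 receptor, was lower in breast than in lung (-0.60, edgeR adjusted p = 0.00129). Csf3 had 146 reads in breast and none in lung libraries, at least 56.7-fold higher with 3 counts over the lung libraries as the floor.

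Beside Arg1, 7 genes of arginine use were tested. In breast over lung 3 were higher and 0 lower. Ass1, argininosuccinate synthase, was among them (58.5 ± 14.1 CPM and 12.1 ± 1.91 CPM, log2 fold change 2.27, edgeR adjusted p = 4.01e-09), as were Odc1, ornithine decarboxylase (2.68, edgeR adjusted p = 5.08e-06), and Slc7a1, an arginine transporter (0.71, edgeR adjusted p = 0.0185). In melanoma over lung Slc7a1 (1.00, edgeR adjusted p = 9.41e-04) and Asl, argininosuccinate lyase (1.04, edgeR adjusted p = 0.00472), were higher and 2 genes lower, one of them Arg2, the mitochondrial arginase (-1.16, edgeR adjusted p = 0.00930). In melanoma over breast 3 were lower, Ass1 (-2.57), Odc1 (-2.55) and Arg2 (-1.65), with edgeR adjusted p-values of 7.37e-10, 4.28e-06 and 3.91e-04. Oat had no read in any library. When the 3 libraries poor in long transcripts or the 3 apart in immune genes were left out, no count of these lists, of the general macrophage list or of the microglia list moved by more than 1 gene in a direction.

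Genes of other cell types were read in the same fits. Of 7 neutrophil genes, 6 were lower in melanoma than in lung, 2 higher in breast than in lung and 7 lower in melanoma than in breast. Neutrophil genes, some of which monocytes share, summed to 4.47 to 8.67 CPM in melanoma, 99.7 to 292 CPM in breast and 26.1 to 216 CPM in lung libraries, with Ly6g at 3 reads or fewer in melanoma and in lung. Of 6 T cell genes, 4 were lower in melanoma than in breast and all 6 missed the threshold in melanoma over lung and in breast over lung. These T cell counts moved when libraries were left out. Without the 3 libraries apart in immune genes, 5 were lower in melanoma than in lung and 0 were called in breast over lung. Without the 3 poor in long transcripts, 3 were higher in breast than in lung and 0 were called in melanoma over lung. Each of these fits had 5 lower in melanoma than in breast. T cell genes summed to 5.56 to 18.9 CPM in melanoma, the highest in melanoma 1, 13.8 to 36.9 CPM in breast and 9.21 to 19.1 CPM in lung libraries. Of 5 dendritic cell genes, 1 was higher and 3 lower in melanoma than in lung, 2 higher in breast than in lung and 2 lower in melanoma than in breast. With libraries left out 6 dendritic cell genes were tested. Without those poor in long transcripts, 4 were higher in breast than in lung. Without those apart in immune genes, 2 were higher and 1 lower in breast than in lung, and 4 lower in melanoma than in breast. Dendritic cell genes, a further source of Ccr2, summed to 14.7 to 22.5 CPM in melanoma, 21.8 to 37.5 CPM in breast and 15.7 to 24.8 CPM in lung libraries. Of 6 fibroblast genes of the meninges, 4 were lower in melanoma than in lung, 3 lower in breast than in lung and 1 lower in melanoma than in breast. The fibroblast genes summed to 53.2 to 112 CPM in melanoma, 84.9 to 126 CPM in breast and 152 to 1180 CPM in lung libraries, and choroid plexus genes to 494 to 1061, 387 to 688 and 416 to 869 CPM in the same order. Of 6 choroid plexus genes, 2 were higher in melanoma than in lung, 1 higher in breast than in lung, and 2 higher and 1 lower in melanoma than in breast. The part of these cells, or of how much border tissue each resection held, in the results was not tested.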

How the data were processed

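RNA was extracted with the RNeasy kit and 1 µg made into poly(A)+ directional libraries (NEBNext Ultra II, antisense), per the labels' protocols. The submitters' processing notes name bcl2fastq and GRCm39. Aligner, counter and annotation: not given in the sources used here. A deposited table holds the authors' raw counts per Ensembl gene, whole numbers without normalization. A second table holds the authors' deposited CPM of 16925 genes on adjusted library sizes, from which whole reads were recovered for 100% of values (tolerance 0.01), 99.76% of them equal to the counts. Pf4 and Ly6c2 matched no row of it. Symbols came from GENCODE M21 (52083 of 55416 IDs).

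Models were fitted to the counts by edgeR 4.0.16 under R 4.3.3 (robust quasi-likelihood, TMM factors, filterByExpr, 1 coefficient per model, 18 libraries), with Benjamini-Hochberg adjustment over 17174 genes and calls at an adjusted p under 0.05. CPM are on TMM-scaled sizes, and log2 CPM used a prior count of 2. DESeq2 1.42.0 and limma 3.58.1 served as alternatives. On simulated counts for melanoma over lung, 69.5% of 200 genes changed 2-fold and 92% of those changed 4-fold were found among 17174. Library numbers are not shared between models. Separate brains are stated, so p-values measure the spread between brains. Libraries of a model differed beyond sampling noise (chi-square at least 2.82 per degree of freedom). Precision limits at 3 counts cover counting error only.

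The 9 genes and all lists were chosen with earlier results of these data known. All 9 are named. From 5 lists the 3 genes with the smallest p per comparison were eligible, and the 3 genes most like each of the 9. A gene among these is not reported here. Genes with a role in a limit were added after their values were seen.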

Additional observations from a re-analysis of the deposited data

Results flagged for a closer look

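In 27 groups of 6 libraries (9 genes in 3 models) the highest or lowest library was set against the rest by Dixon's test on untransformed CPM. Its rate of about 1 in 20 groups by chance holds for normally spread values, and these groups share libraries. The number that stood apart is therefore a description and cannot be read against that rate. By this test 4 stood apart. Of these, 3 were the highest value of melanoma 1. Ccr2 was at 15.2 CPM there, against 0.929 to 1.17 CPM in the other melanoma libraries. Plac8 was at 9.26 CPM, against 0.0826 to 2.42 CPM, and Arg1 at 1.54 CPM, against 0.165 to 0.465 CPM. In the same library the T cell list summed to 18.9 CPM, against 5.56 to 9.48 CPM in the other melanoma libraries, and the melanocyte list to 14060 CPM, within their range. The fourth was Arg1 in breast 14 at 70.6 CPM, against 9.43 to 14.7 CPM in the other breast libraries. That library also had the highest F13a1 (32.4 CPM) and Mrc1 (16.9 CPM) and the lowest Ly6c2 (28.7 CPM) and Plac8 (37.8 CPM) of the breast libraries. What set these libraries apart was not tested.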

How the results depend on the processing

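No paired analysis was possible because the models share no library number. Of 848 alternative values of the fold changes of the 9 genes, 785 kept their direction and side of the threshold. With a test against a 1.5-fold change, 1897, 1053 and 2218 genes were called in melanoma over lung, breast over lung and melanoma over breast (3978, 3149 and 4966 without it), and 1 of the 9 genes in breast over lung (Mrc1) in place of 3. That test also ended the calls of Lyve1 (adjusted p = 0.320) and Ccr2 (0.0652) in melanoma over lung and of Mrc1 in melanoma over breast (0.401). In breast over lung 5 of the 9 were called by limma voom and 6 in a fit of the 12 libraries concerned. The number of all genes called in breast over lung stayed within 1.5-fold of 3149 in both. In the fit of 12 libraries Lyve1 (edgeR adjusted p = 0.0681) and Ccr2 (0.0645) lost their calls in melanoma over lung. Leaving out 1 library gave 3495 to 4623, 2575 to 4113 and 4520 to 8078 genes, the last without melanoma replicate 3, and 6 to 8, 2 to 5 and 7 to 7 of the 9 genes, with 5 in breast over lung without melanoma replicate 1. Exact permutation tests on log2 CPM, without adjustment, gave p under 0.05 in breast over lung also for Ccr2 (p = 0.00866), Ly6c2 (0.00433) and Cd163 (0.0216). DESeq2 size factors moved no median of all genes by over 0.1. Divided by the general macrophage list, 5 differences changed sign, F13a1 (0.69) and Pf4 (0.11) in melanoma over lung and Mrc1 (1.71), Cd163 (1.94) and F13a1 (0.19) in melanoma over breast, the denominator itself being lower in melanoma. Lyve1 and Cd163, with 49 to 158 reads per model, and Ly6c2, Plac8 and Arg1 in melanoma, are limited by depth.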
